A study of Mus musculus with 8 samples.

Results

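Collagen genes and genes typical of mesenchymal cells were followed in cultures of mouse neurons made from embryonic stem cells. The members were all genes with a collagen chain symbol (Col, a type number, a and a chain number) together with Tagln, Acta2, Fn1, Sparc, Lum, Dcn, Postn, Thbs1, Pdgfra, Pdgfrb, Twist1 and Cnn1, provided that some library held 10 or more counts of the gene. This rule gave 53 members of 18301 genes, namely 41 collagen genes and the 12 listed mesenchymal genes. Col20a1 and Col6a5 were in the table with at most 9 and 2 counts and were not members.

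The assays were ribosome footprints, the stretches of mRNA covered by ribosomes, and total RNA of neurons at day 8 in vitro, derived from CGR8, a feeder-independent line of mouse embryonic stem cells. The groups were footprints of the Eif4g1/Eif4g3 double knockout (DKO), footprints of wildtype (WT), total RNA of DKO and total RNA of WT, with 2 libraries in each. Eif4g1 and Eif4g3 encode scaffold proteins that bring the ribosome to capped mRNA. All cultures, of both genotypes, received 100 µg/ml cycloheximide for 5 minutes to hold ribosomes on the mRNA. The labels call the neurons cortical and glutamatergic and give each library a culture code, but they do not say how many knockout clones the cultures came from. Footprint and RNA libraries of the same genotype and number were read as 1 culture from those codes, so the 8 libraries stand for 4 cultures. WT replicate 2 has the plain code WT, whereas WT replicate 1 and both DKO cultures have codes of a c and numbers, whose meaning the labels do not give. The code of DKO replicate 2 is spelled differently in its 2 libraries, and its match is uncertain. Nothing says whether replicates came from separate differentiations, so a p-value below speaks only to the scatter among these libraries.

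Collagens are secreted proteins whose chains wind around each other into a rod-like helix, and they form the fibers and sheets of the extracellular matrix. Fibrillar collagens (types I, II, III, V and XI) build fibers, type IV builds the sheet of basement membranes, type VI forms beaded filaments, and the FACIT collagens (such as types IX, XII and XIV) sit on the surface of fibers. Fibroblasts, mural cells of vessels and the cells of the meninges make most of the fibrillar collagen in and around the brain, while neurons make little. Among the listed genes, Tagln, Acta2 and Cnn1 encode proteins of the contractile actin skeleton. Sparc, Fn1, Postn and Thbs1 encode secreted matrix proteins, Lum and Dcn encode proteoglycans that coat collagen fibers, Pdgfra and Pdgfrb encode receptors for platelet-derived growth factor, and Twist1 encodes a transcription factor of mesenchymal cells.

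Promoter windows are shown for members whose levels moved side by side across the cultures. Windows from 250 bases before to 50 bases after the RefSeq gene start (GRCm38.p6) were at hand for 38 of the 53 members, 42 windows in all. Only bases outside annotated exons are printed, 5′ to 3′ on the strand of the gene. Col1a2, Col3a1 and Postn encode proteins of collagen fibers and their surroundings, and they ranked the 4 cultures in the same order. Capitals mark GGGCGG in Col1a2, at 205 and 188 bases before the start, and TATAAA in Col3a1 and Postn, at 117 and 26 bases before it. Postn has another window (chr3:54359017-54359316), which held no TATAAA and is not printed.
Col1a2 (chr6:4505370-4505492, plus strand): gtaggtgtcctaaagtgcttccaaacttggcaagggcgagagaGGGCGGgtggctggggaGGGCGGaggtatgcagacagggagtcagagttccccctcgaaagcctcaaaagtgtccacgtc
Col3a1 (chr1:45311288-45311537, plus strand): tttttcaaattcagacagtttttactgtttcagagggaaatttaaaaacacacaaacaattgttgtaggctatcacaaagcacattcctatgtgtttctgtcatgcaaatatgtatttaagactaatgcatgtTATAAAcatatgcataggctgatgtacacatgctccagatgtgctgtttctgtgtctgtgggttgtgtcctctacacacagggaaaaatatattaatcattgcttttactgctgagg
Postn (chr3:54360857-54361106, plus strand): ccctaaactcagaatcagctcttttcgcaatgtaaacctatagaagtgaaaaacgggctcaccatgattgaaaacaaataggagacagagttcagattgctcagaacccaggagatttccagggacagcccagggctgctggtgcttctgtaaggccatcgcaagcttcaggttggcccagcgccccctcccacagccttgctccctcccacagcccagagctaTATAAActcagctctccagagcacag

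Genes for type IV chains lie head to head in pairs. The annotated starts of Col4a1 (chromosome 8, 11312826, minus strand) and Col4a2 (11312805, plus strand) overlap by 22 bases, and the windows of this pair are not printed. Col4a6 and Col4a5 on chromosome X start at 141474076 and 141475419 with 1342 bases between them. In their windows capitals mark CCAAT in Col4a5 at 196 bases before its start and GGGCGG, read on the other strand as CCGCCC, in Col4a6 at 21 bases before its start.
Col4a5 (chrX:141475169-141475384, plus strand): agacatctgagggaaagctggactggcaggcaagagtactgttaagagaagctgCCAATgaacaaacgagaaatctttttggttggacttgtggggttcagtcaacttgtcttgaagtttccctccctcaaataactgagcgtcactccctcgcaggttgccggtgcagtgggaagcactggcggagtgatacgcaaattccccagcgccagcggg
Col4a6 (chrX:141474077-141474326, minus strand): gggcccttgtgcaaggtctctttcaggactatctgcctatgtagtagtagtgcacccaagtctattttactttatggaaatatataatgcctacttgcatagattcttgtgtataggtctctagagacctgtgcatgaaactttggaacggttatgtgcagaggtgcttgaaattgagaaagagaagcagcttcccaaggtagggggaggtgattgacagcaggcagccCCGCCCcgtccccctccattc

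Motifs were searched on both strands of the whole windows, and matches of different motifs were counted separately even where they overlap. GGGCGG was in 22 of 42 member windows (52.4%), against 35.7% of all 32851 windows. TATAAA was in 7 of the member windows (16.7%), against 13.6% of all, CCAAT in 16 (38.1%), against 37.4%, and the CArG box in 1 (2.4%), against 1.6%. These matches describe the windows and are no measure of binding.

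The libraries held 10490535 to 18381021 counts in DKO footprints, 14450410 to 19753419 in WT footprints, 15862034 to 44786643 in DKO RNA and 14762047 to 22352224 in WT RNA. Whole-gene counts of the targets do not show a lost exon: Eif4g1 had 153.8 and 287.5 CPM (counts scaled to the effective size of the library) in DKO footprints, against 299.8 and 263 CPM in WT footprints, and Eif4g3 had 164.4 and 172.5 CPM in DKO, against 168.6 and 153.3 CPM in WT. Of 9 neuron markers, Tubb3, Map2, Snap25 and Syn1 were abundant, with summed marker levels of 5092 and 5357 CPM in DKO footprints, against 5580 and 4584 CPM in WT footprints. Slc17a6, a glutamate transporter of excitatory neurons, had 234.2 and 193.6 CPM in DKO footprints, against 165.7 and 74.33 CPM in WT footprints. Slc17a7, the other main transporter of cortical excitatory neurons, was under 10 counts in every library, and Tbr1, a cortical transcription factor, reached at most 1.045 CPM. WT replicate 2 stood apart in both assays in many of the levels described below. Medians of log2 changes between genotypes, and the changes of some genes, are therefore also given without its libraries.

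Members made up a small part of each library, and a few genes carried most of it. They held 0.148% and 0.0888% of the counts in DKO footprints, against 0.105% and 0.243% in WT footprints. In RNA the shares were 0.0918% and 0.0772% in DKO, against 0.0885% and 0.184% in WT. The 6 members with the highest CPM over all libraries, Sparc, Col3a1, Col4a1, Col1a1, Pdgfra and Col4a2, took 64.8% to 71.5% of the member footprints and 53.8% to 61.6% of the member RNA. In both assays the members' share of all counts was highest in WT replicate 2 and lowest in DKO replicate 2, while the part taken by these 6 genes was highest in DKO replicate 2.

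Fibrillar collagens were led by the chains of types I and III. Col3a1 (ENSMUSG00000026043, chromosome 1, 45311538 to 45349706) had 183.7 and 60.58 CPM in DKO footprints, against 105 and 277.6 CPM in WT footprints, and 115.9 and 40.03 CPM in DKO RNA, against 94.01 and 247.6 CPM in WT RNA. Col1a1 (ENSMUSG00000001506, chromosome 11, 94936224 to 94953042) had 193.7 and 54.14 CPM in DKO footprints, against 110.8 and 265 CPM in WT footprints, and 38.14 and 14.26 CPM in DKO RNA, against 27.29 and 68.36 CPM in WT RNA. Col1a2 (ENSMUSG00000029661, chromosome 6, 4504814 to 4541544), whose chain joins that of Col1a1 in type I collagen, had 84.83 and 28.73 CPM in DKO footprints, against 50.87 and 143.8 CPM in WT footprints. All of these genes were highest in WT replicate 2, next in DKO replicate 1, then in WT replicate 1 and lowest in DKO replicate 2, in footprints and RNA alike, so that the genotypes interleaved.

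Chains of the minor fibrillar types drew fewer footprints on average, and some varied little. Col11a1, a chain of type XI collagen that starts fibers of cartilage, had 27.06 and 26.24 CPM in DKO footprints, against 25.07 and 30.74 CPM in WT footprints. Its RNA stood at 28.37 and 32.9 CPM in DKO, against 36.36 and 42.87 CPM in WT, and both DKO libraries were below both WT libraries in RNA alone. Col5a1, a type V chain that limits the width of fibers, had 16.03 and 6.974 CPM in DKO footprints, against 9.24 and 27.1 CPM in WT footprints, with WT replicate 2 again highest. Its partner Col5a2 spanned less, at 12.49 and 7.034 CPM in DKO footprints, against 9.014 and 13.88 CPM in WT footprints. Col2a1, the main collagen of cartilage, was at 3.842 to 5.308 CPM in DKO footprints and 3.996 to 6.31 CPM in WT footprints and was not highest in WT replicate 2.

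Basement membrane collagens were highest in WT replicate 2 as well, but DKO replicate 2 was not the lowest culture for the most abundant pair. Col4a1 (ENSMUSG00000031502, chromosome 8, 11198423 to 11312826) had 105.6 and 103.6 CPM in DKO footprints, against 66.48 and 248.3 CPM in WT footprints, and 70.25 and 103.9 CPM in DKO RNA, against 72.15 and 238.6 CPM in WT RNA. Its head-to-head neighbour Col4a2 had 78.79 and 85.23 CPM in DKO footprints, against 68.62 and 153.4 CPM in WT footprints. DKO replicate 2, which was lowest for types I and III, was thus above WT replicate 1 for both chains. Col4a5 had 25.4 and 15.25 CPM in DKO footprints, against 18.59 and 31.46 CPM in WT footprints, and Col4a6 had 5.1 and 3.428 CPM in DKO, against 4.789 and 8.938 CPM in WT.

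In footprints the beaded filament collagens ranked the cultures as the type I chains did. Col6a1 had 30.18 and 11.05 CPM in DKO footprints, against 13.8 and 35.24 CPM in WT footprints, and Col6a2, its partner chain, had 19.46 and 6.443 CPM in DKO, against 8.282 and 24.2 CPM in WT. Col6a3, the long chain of the same filament, had 16.65 and 8.984 CPM in DKO footprints, against 14.87 and 21.58 CPM in WT footprints. Col18a1, a multiplexin of basement membranes, had 26.12 and 9.221 CPM in DKO footprints, against 15.38 and 38.15 CPM in WT footprints. In footprints of each of these, DKO replicate 1 and WT replicate 2 were the high cultures and DKO replicate 2 was the lowest. In RNA Col6a3 had 10.86 and 8.473 CPM in DKO, against 15.79 and 22.53 CPM in WT, so both DKO cultures were below both WT cultures there.

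Collagens of the FACIT group behaved otherwise. Their summed level was 38.3 and 33.16 CPM in DKO footprints, against 34.14 and 41.27 CPM in WT footprints, while the sum of the fibrillar group was 527.2 and 190.5 CPM in DKO, against 319.4 and 767.4 CPM in WT. Col9a3, a chain of type IX collagen, had 9.784 and 12.59 CPM in DKO footprints, against 11.1 and 10.32 CPM in WT footprints, and its exons overlap those of Tcfl5 on the other strand by up to 230 bases. Col26a1, a collagen outside the main groups, had 28.93 and 21.75 CPM in DKO footprints, against 22.65 and 29.57 CPM in WT footprints. Of the FACIT genes, Col12a1 and Col16a1 followed the order of type I, and Col9a1, Col9a2, Col9a3, Col14a1 and Col19a1 were not highest in WT replicate 2 in both assays.

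**Figure D1:**
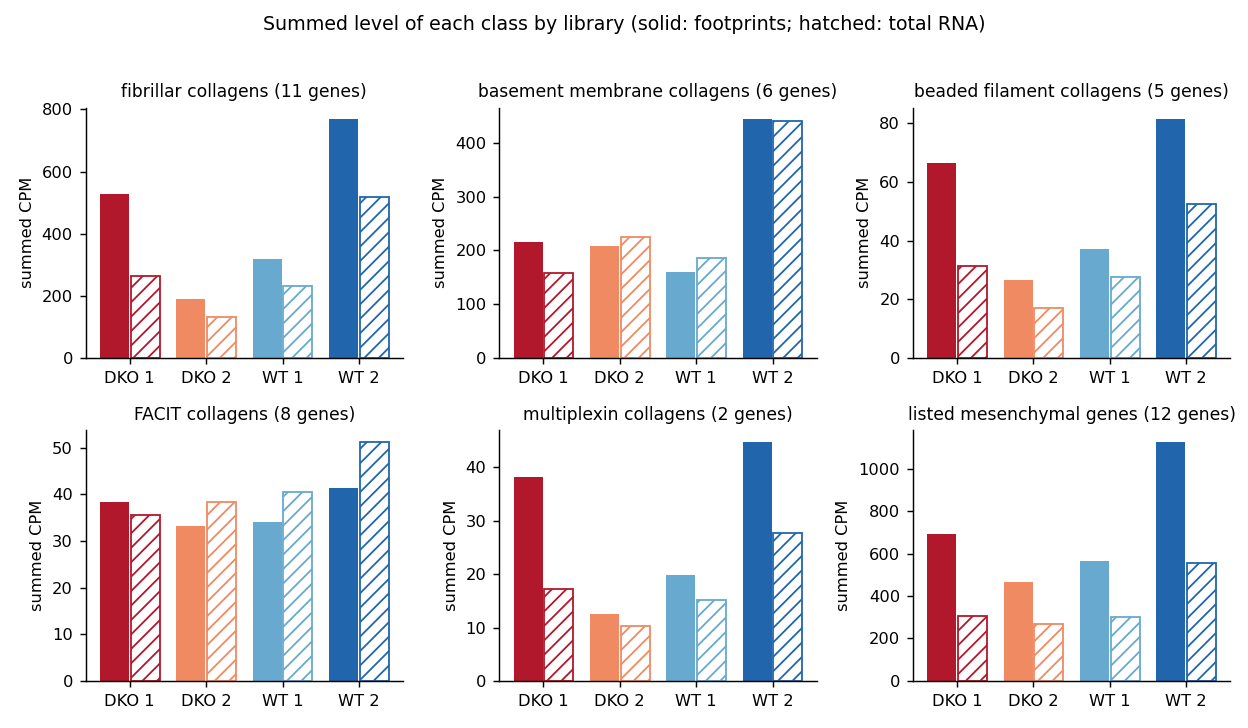
Summed CPM (vertical axes, each starting at 0) of 6 classes of members in each culture, DKO 1 and 2 on the left and WT 1 and 2 on the right, as solid bars for footprints and hatched bars for total RNA. The fibrillar sum in footprints spans 190.5 to 767.4 CPM, while the FACIT sum spans 33.16 to 41.27 CPM.

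Sparc drew the most footprints of the members, counting all of its isoforms. Sparc (ENSMUSG00000018593, chromosome 11, 55394500 to 55423183), a secreted collagen-binding protein also made by astrocytes, had 393.5 and 312 CPM in DKO footprints, against 344.2 and 612.3 CPM in WT footprints, and 109.4 and 130.2 CPM in DKO RNA, against 117.5 and 230.3 CPM in WT RNA. WT replicate 2 was the highest, and the other cultures lay close together. Most of these footprints were assigned to 1 isoform, described further below. Dcn had 64.53 and 21.16 CPM in DKO footprints, against 41.97 and 127 CPM in WT footprints, and Postn had 50.17 and 12.23 CPM in DKO, against 24.11 and 53.33 CPM in WT. Lum, the other proteoglycan, had 7.702 and 3.014 CPM in DKO footprints, against 5.521 and 6.322 CPM in WT footprints, with its highest value in DKO replicate 1. Fn1, the fibronectin gene, had 17.59 and 11.76 CPM in DKO footprints, against 17.01 and 36.91 CPM in WT footprints, and Thbs1 had 13.11 and 8.393 CPM in DKO, against 9.183 and 15.48 CPM in WT.

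Genes of the contractile skeleton were among those that differed most between the WT cultures. Tagln (chromosome 9, 45929619 to 45936058) had 9.784 and 3.31 CPM in DKO footprints, against 5.409 and 50.5 CPM in WT footprints, and 3.789 and 1.987 CPM in DKO RNA, against 3.643 and 14.08 CPM in WT RNA. Acta2, the smooth muscle actin (chromosome 19, 34241090 to 34255590), had 35.6 and 12.35 CPM in DKO footprints, against 20.79 and 97.15 CPM in WT footprints, and 7.23 and 3.623 CPM in DKO RNA, against 5.049 and 19.48 CPM in WT RNA. WT replicate 2 was far above the rest in both, and its footprint level was 9.34 times that of WT replicate 1 for Tagln and 4.67 times for Acta2, beside 5.75 times for Col13a1 and 5.67 times for Col8a2. In RNA the same ratio was 3.87 for Tagln and 3.86 for Acta2, beside 4.32 for Col13a1 and 4.13 for Col8a2. Acta2 shares 3.08% of its coding 28-base words with other genes, mainly Actg1 and Actb, and exons of Tagln overlap Pcsk7 on the other strand by up to 108 bases, so a part of these counts is uncertain. Cnn1 was near the lower limit, with 7 and 1 footprint counts in DKO and 10 and 15 in WT.

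Receptors and Twist1 varied least among the listed genes or were low. Pdgfra, which also marks oligodendrocyte precursors, had 90.97 and 73.59 CPM in DKO footprints, against 87.83 and 112.6 CPM in WT footprints, and 80.84 and 83.74 CPM in DKO RNA, against 100.6 and 128.4 CPM in WT RNA. Pdgfrb, a receptor of mural cells and fibroblasts, had 8.951 and 6.797 CPM in DKO footprints, against 8.226 and 8.647 CPM in WT footprints. Twist1 had 1.769 and 1.064 CPM in DKO footprints, against 1.408 and 3.27 CPM in WT footprints. For Pdgfra the oligodendrocyte precursor markers Olig2, Sox10, Cspg4 and Gpr17 summed to 205.7 and 206.8 CPM in DKO footprints, against 220.5 and 222.3 CPM in WT footprints.

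**Figure D2:**
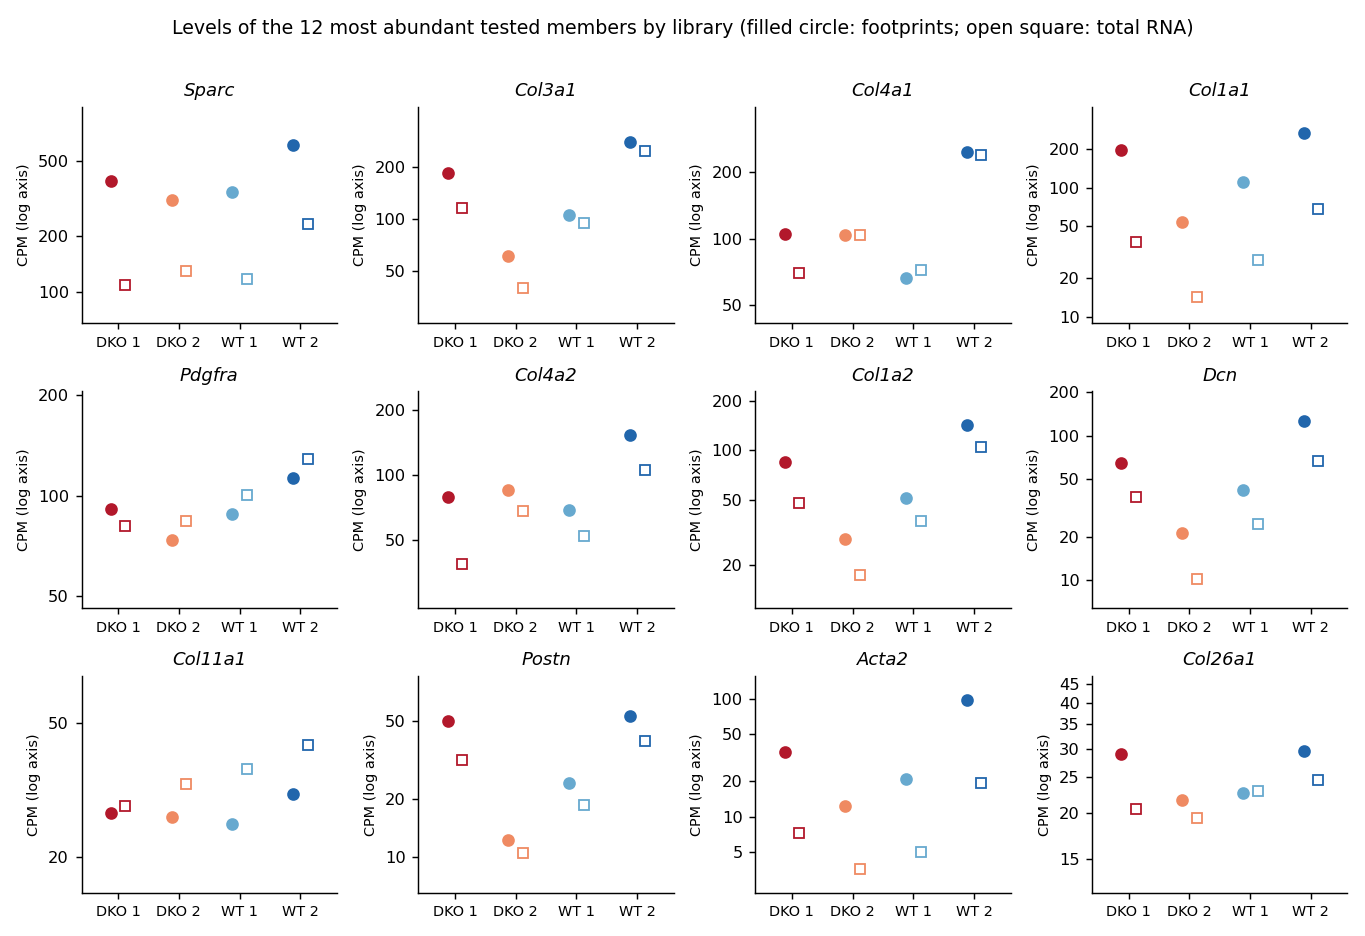
CPM on a log axis of the 12 most abundant tested members in DKO cultures 1 and 2 and WT cultures 1 and 2, with filled circles for footprints and open squares for total RNA. WT 2 holds the highest footprint value in each panel, from 29.57 CPM for Col26a1 to 612.3 CPM for Sparc.

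Cultures of the same genotype differed widely in the members. Of the 53 members, 41 passed the low-count filter in both assays and were tested (29 collagens and the 12 listed genes), and these counts refer to them. WT replicate 2 was the highest of the 4 cultures in both assays for 31 of 41 members (75.6%), against 18.6% of all 12898 genes tested. DKO replicate 2 was the lowest in both assays for 25 members (61.0%), against 6.15% of all genes. The full order of WT replicate 2, DKO replicate 1, WT replicate 1 and DKO replicate 2 held in both assays for 16 members (39.0%), against 1.19% of all genes. These were Acta2, Cnn1, Col12a1, Col13a1, Col16a1, Col18a1, Col1a1, Col1a2, Col3a1, Col5a1, Col6a1, Col6a2, Dcn, Postn, Tagln and Thbs1. In bulk samples, fewer cells of a type and less RNA per cell cannot be told apart.

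The size of these differences was several times that of other genes. Between the 2 WT cultures the median absolute log2 difference was 0.85 in footprints and 0.83 in RNA over the members, against 0.17 and 0.13 over all genes. Between the 2 DKO cultures it was 0.66 in footprints and 0.44 in RNA, against 0.14 and 0.11 over all genes. Differences in footprints and RNA ran side by side: across the 41 members, Pearson's r between the assays was 0.83 for the DKO cultures and 0.92 for the WT cultures, against 0.21 and 0.61 across all genes. The points of each correlation share their cultures, and genes are not independent replicates. Over the 4 cultures a member's footprints spanned a median of 1.36 on the log2 scale and its RNA 1.21, while footprints over RNA spanned 0.57, and the medians over all genes were 0.31, 0.26 and 0.32.

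**Figure D3:**
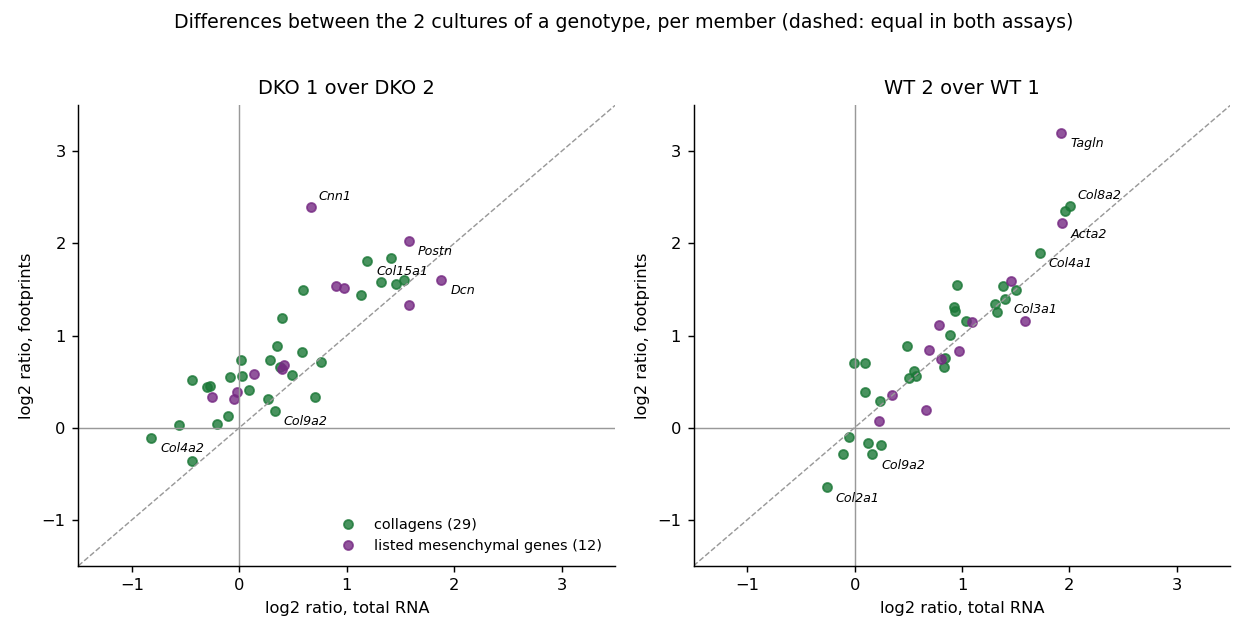
Log2 ratio between the 2 cultures of a genotype in total RNA (horizontal) and footprints (vertical) for 29 collagens and 12 listed genes, with DKO 1 over DKO 2 on the left and WT 2 over WT 1 on the right. Most points lie above 0 in both assays, and the WT footprint ratios run from -0.65 for Col2a1 to 3.20 for Tagln.

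Summed markers of several other cell types were also highest in WT replicate 2, among them the meningeal and endothelial lists. Of 6 meningeal markers 4 were in the table, and their sum was 16.65 and 8.275 CPM in DKO footprints, against 12.06 and 51.74 CPM in WT footprints, and 14.91 and 5.493 CPM in DKO RNA, against 7.286 and 27.1 CPM in WT RNA. Slc6a13, a transporter of leptomeningeal fibroblasts, had 5.933 and 2.187 CPM in DKO footprints, against 5.352 and 29.65 CPM in WT footprints. Other fibroblast markers (12 of 12 in the table) summed to 736.6 and 691.4 CPM in DKO footprints, against 718.5 and 1095 CPM in WT footprints, and most of this was Vim. Endothelial markers (7 of 8 in the table, Erg under 10 counts) summed to 4.58 and 5.792 CPM in DKO footprints, against 5.127 and 17.37 CPM in WT footprints. Flt1 gave 8.792 CPM of the footprint sum in WT replicate 2, where 2 of 3 tested endothelial genes were highest in both assays. Pecam1 was lowest there in both assays, at 0.9367 and 0.9457 CPM in DKO footprints and 1.634 and 0.436 CPM in WT footprints. Mural markers (9 of 9, Des under 10 counts) summed to 41.42 and 39.9 CPM in DKO footprints, against 41.24 and 49.12 CPM in WT footprints, and chondrocyte and bone markers (7 of 7, Bglap and Comp under 10 counts) to 112.9 and 97.35 CPM, against 109.9 and 118.8 CPM. Of the mural list 3 of 6 tested genes were highest in WT replicate 2 in both assays, and Mcam was lowest there in footprints, at 4.163 and 3.369 CPM in DKO and 4.451 and 3.052 CPM in WT. Of the chondrocyte list 1 of 4 was, and most of its sum was Sox9, a factor also made by glia, at 104.8 and 92.5 CPM in DKO footprints and 105.9 and 113.9 CPM in WT footprints.

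Sums of astrocyte and pluripotent cell markers were highest in WT replicate 2 as well, and the progenitor sum was close in both WT cultures. Astrocyte markers (4 of 4) summed to 511.7 and 488.7 CPM in DKO footprints, against 453 and 679.7 CPM in WT footprints. Of these 3 were highest in WT replicate 2 in both assays, among them Gfap, at 152.3 and 99.3 CPM in DKO footprints and 45.41 and 168.1 CPM in WT footprints. Aldh1l1 was not, at 65.78 and 76.9 CPM in DKO footprints and 69.64 and 68.3 CPM in WT footprints. Progenitor markers (4 of 5) summed to 2955 and 3363 CPM in DKO footprints, against 3867 and 3872 CPM in WT footprints. Most of the progenitor sum was Fabp7, at 2868 and 3260 CPM in DKO footprints, against 3769 and 3708 CPM in WT footprints. Nes, an intermediate filament of progenitors, was highest in WT replicate 2, at 47.57 and 53.96 CPM in DKO footprints, against 54.09 and 109.3 CPM in WT footprints. Pluripotent and early germ layer markers (6 of 6) summed to 1.249 and 1.655 CPM in DKO footprints, against 0.8451 and 11.26 CPM in WT footprints. Among these, Pou5f1, a pluripotency factor, had 0 and 0.1773 CPM in DKO footprints, against 0.05634 and 3.924 CPM in WT footprints. No marker in the table was at 0 in every library. The part of such cells in the levels of the collagens was not tested.

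Footprints of the members did not differ detectably between genotypes. No member was called in DKO over WT at a Benjamini-Hochberg adjusted p under 0.05 (edgeR quasi-likelihood test over all genes), where 0.00775% of the 12898 genes tested were called. At an unadjusted p under 0.05 there was 1 member, Col9a2 (2.44% of the members), against 725 of all genes (5.62%), and DESeq2 and limma-voom called 0 members. The log2 change was negative for 36 of 41 members with a median of -0.44, against a median of 0.00 over all genes. With both libraries of WT replicate 2 left out, the median was 0.10, so the sign of the shift rested on that culture. No member had both DKO footprint libraries below both WT libraries, where 16.2% of all genes did, and Col14a1 and Col9a2 had both above, where 16.3% of all genes did.

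Tagln had the lowest log2 change in footprints, at -2.16 ± 1.41 (SE), followed by Col13a1, a transmembrane collagen (-1.53 ± 1.04), Col8a2 (-1.41 ± 1.10) and Acta2 (-1.34 ± 1.12). Without the footprint library of WT replicate 2 the values were 0.20 for Tagln, 0.28 for Col8a2 and 0.16 for Acta2. For the type I and III chains the values were -0.61 ± 0.97 for Col1a1, -0.80 ± 1.01 for Col1a2 and -0.66 ± 1.0 for Col3a1, and for the most abundant type IV chain -0.59 ± 0.88 for Col4a1. Without the same library these were 0.14, 0.12, 0.20 and 0.65. Sparc stood at -0.44 ± 0.43, and at 0.03 without it, and Fn1 at -0.89 ± 0.48, and at -0.24 without it. None of these differences was larger than the spread between libraries by the test, and the adjusted p (edgeR) was at least 0.849 for every member.

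The members with the smallest p in footprints were Col9a2, Col4a6 and Col12a1. Col9a2, a FACIT chain of type IX collagen, had 2.29 and 2.01 CPM in DKO footprints, against 1.352 and 1.09 CPM in WT footprints, a log2 change of 0.79 ± 0.34 on at most 34 counts a library. Col4a6 had a log2 change of -0.70 ± 0.33. Col12a1, a FACIT collagen of tendon and skin, had 5.204 and 3.251 CPM in DKO footprints, against 5.127 and 8.138 CPM in WT footprints, a log2 change of -0.67 ± 0.36, and its counts all came from isoforms annotated as noncoding. Without the footprint library of WT replicate 2 the values were 0.65 for Col9a2, -0.20 for Col4a6 and -0.32 for Col12a1. Over the members the median SE was 0.48, against 0.13 over all genes.

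Total RNA gave lower values in DKO for nearly all members, and again none passed the test. No member was called, where 0.0155% of the genes tested were, and 3 members had an unadjusted p under 0.05 (7.32%), against 719 of all genes (5.57%). DESeq2 and limma-voom called 0 members. The log2 change was negative for 39 of 41 members with a median of -0.59, against 0.00 over all genes, and the median was -0.13 without both libraries of WT replicate 2. Both DKO libraries were below both WT libraries for 15 members (36.6%), against 18.9% of all genes, and above for 0 members, against 19.6%. No member was below in both assays, where 6.69% of all genes were.

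In RNA the smallest p-values were those of Pdgfra, Col11a1 and Col6a3. Pdgfra stood at -0.48 ± 0.16 on the log2 scale, Col11a1 at -0.38 ± 0.13 and Col6a3 at -0.98 ± 0.33, and without RNA of WT replicate 2 the values were -0.29, -0.25 and -0.68. All 3 belong to the 15 members whose groups did not overlap in RNA, of which the others were Col11a2, Col19a1, Col26a1, Col2a1, Col4a5, Col4a6, Col5a2, Col8a1, Col8a2, Col9a1, Fn1 and Pdgfrb. Col8a2, a short-chain collagen of the cornea and vessel walls, had 2.192 and 1.812 CPM in DKO RNA, against 2.684 and 11.08 CPM in WT RNA, a log2 change of -1.79 ± 0.94. Col3a1 stood at -1.12 ± 1.0, Col1a2 at -1.10 ± 1.0, Tagln at -1.57 ± 1.40 and Acta2 at -1.14 ± 1.20, with overlapping groups for each. Without RNA of WT replicate 2, Col8a2 stood at -0.40, Col3a1 at -0.24, Col1a2 at -0.13, Tagln at -0.24 and Acta2 at 0.20.

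Some members passed the test when WT was represented by its replicate 2 alone, the culture already seen to be highest for most members. Lower levels in DKO come with that choice of culture, so calls in this setting are no separate evidence on genotype. Without both libraries of WT replicate 1, the remaining WT culture was replicate 2, and it was assumed to vary like the DKO cultures. In that setting 6 of 44 members tested (13.6%) were called lower in DKO footprints, where 2.45% of the 13215 genes tested were called lower. In DKO RNA 10 members (22.7%) were called lower, where 2.63% of the genes were. In footprints these were Col13a1, Col4a1, Col4a6, Col8a2, Fn1 and Sparc, and in RNA they were Col13a1, Col4a1, Col4a3, Col4a5, Col8a1, Col8a2, Fn1, Pdgfra, Sparc and Twist1. Without both libraries of WT replicate 2, no member was called in either assay.

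**Figure D4:**
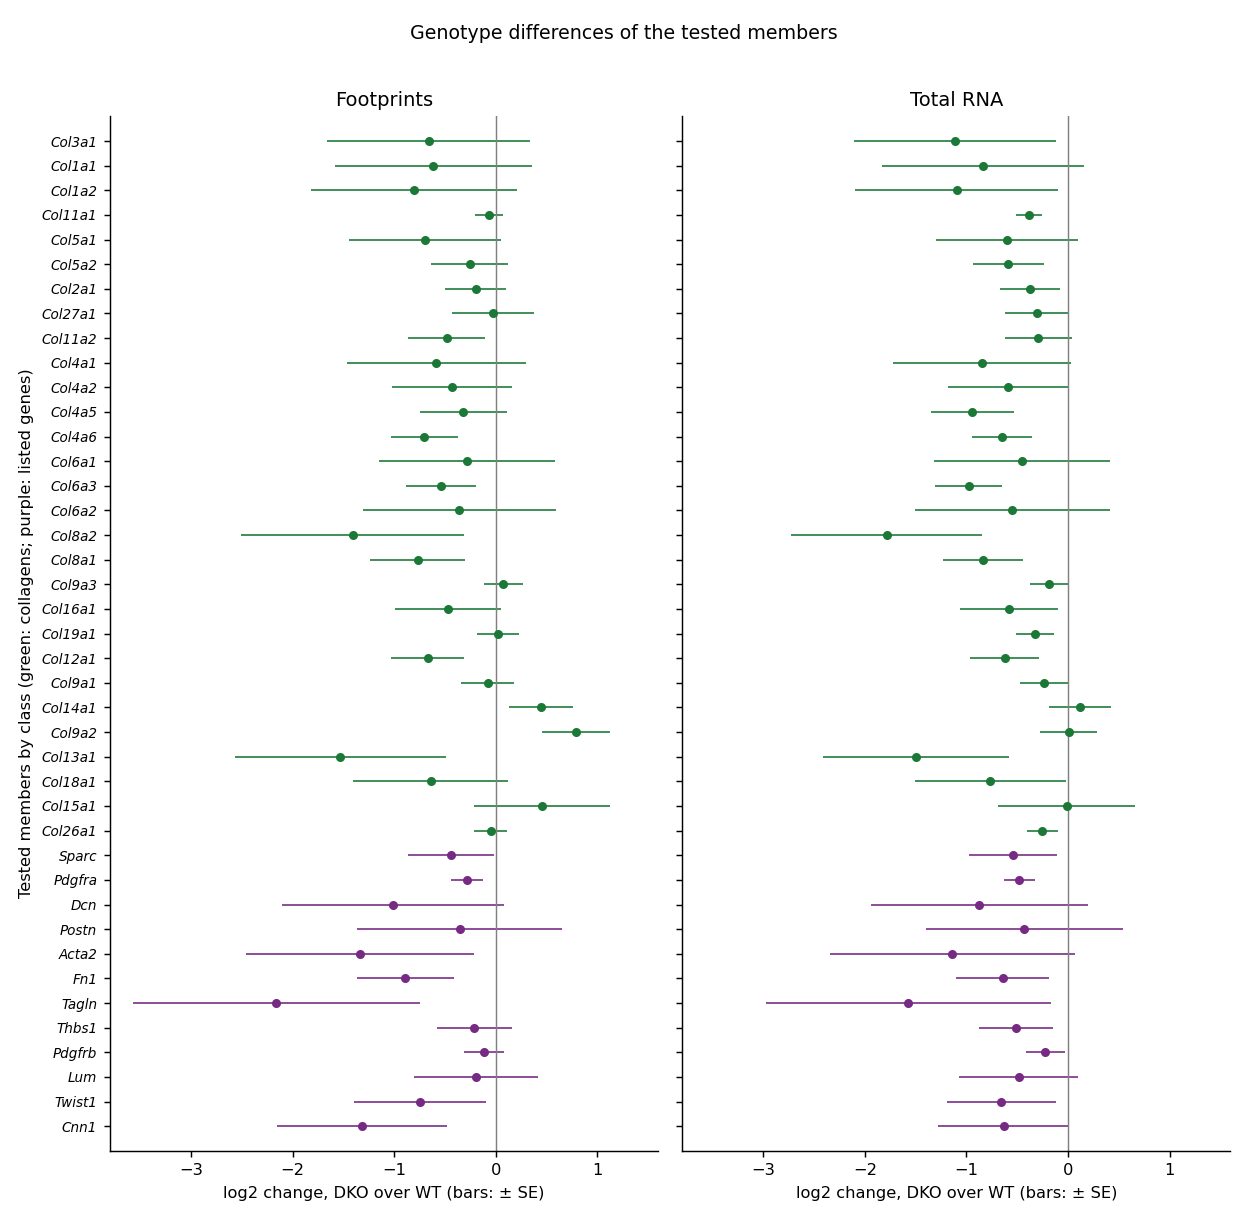
Log2 change of DKO over WT with its SE (horizontal axes) for the 41 tested members by class, in footprints on the left and total RNA on the right, collagens in green and listed genes in purple. Most values lie below 0, with medians of -0.44 and -0.59, and the widest bars belong to Tagln and Acta2.

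Translational efficiency, the genotype difference in footprints relative to RNA, was asked next, since the genes targeted in the DKO encode factors that act in translation. No member was called, where 0% of all genes were, and 0 members had an unadjusted p under 0.05 in edgeR, while DESeq2 and limma-voom called 0 members. The median over the members was 0.17, against 0.01 over all genes. It was -0.45 without the RNA library of WT replicate 2, 0.66 without its footprint library and 0.20 without both. The smallest p-values belonged to Col9a2 (0.78 ± 0.44 on the log2 scale), Col11a1 (0.32 ± 0.19) and Col19a1, a FACIT collagen (0.34 ± 0.28). With culture as a replicate block, 6 members (14.6%) reached an unadjusted p under 0.05, against 300 of all genes (2.33%), and all 6 had positive values: Col3a1 (0.47 ± 0.13), Col4a5 (0.60 ± 0.19), Col1a2 (0.33 ± 0.13), Col6a3 (0.46 ± 0.19), Col11a1 (0.31 ± 0.15) and Col9a2 (0.81 ± 0.39). Their adjusted p was 1 in that fit.

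Footprints relative to RNA, averaged over the 4 cultures, separated the members from one another. This quantity is the log2 ratio of scaled footprint CPM to scaled RNA CPM, so 0 is close to the median gene, which stood at -0.01. In the fit without a block 8 members were called (19.5%), where 74.8% of all genes were called, and Sparc (1.51 ± 0.31) and Col2a1 (0.61 ± 0.21) were the 2 higher ones. The 6 lower ones were Col27a1 (-1.48 ± 0.26), Col9a2 (-0.86 ± 0.22), Col8a1 (-0.85 ± 0.31), Col19a1 (-0.68 ± 0.14), Col9a1 (-0.67 ± 0.18) and Col11a1 (-0.35 ± 0.09). With culture as a replicate block, which sets each footprint library against the RNA library read as its own culture, 28 members were called. Of these 19 were higher, where 40.1% of all genes were called higher, and 9 were lower, where 41% of all genes were called lower.

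Most of the 28 members had no call without the block. Among the collagens of this kind not described further below, the block values were 1.20 ± 0.11 for Col6a2, 1.05 ± 0.09 for Col6a1, 0.96 ± 0.15 for Col15a1, 0.61 ± 0.12 for Col18a1, 0.57 ± 0.09 for Col4a2 and 0.23 ± 0.08 for Col26a1, and -0.23 ± 0.10 for Col5a2 and -0.72 ± 0.18 for Col8a2. Among the listed genes they were 0.87 ± 0.07 for Dcn, 0.59 ± 0.14 for Lum, 0.48 ± 0.10 for Thbs1, 0.46 ± 0.08 for Postn, 0.44 ± 0.09 for Fn1 and 0.30 ± 0.12 for Pdgfrb. The values without the block were close to these, with larger SE. For Fn1, isoforms without a coding sequence held 41.8% to 53.2% of the RNA but at most 4.0% of the footprints, which lowers its ratio.

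Acta2 and Col1a1 had the highest footprints relative to RNA. A part of the Acta2 ratio is uncertain, since 3.08% of its coding 28-base words are shared with other genes. With protein-coding isoforms only, the log2 values without a block were 2.14 for Acta2 and 1.98 for Col1a1. For Acta2 the ratio was 2.28 and 1.74 in the DKO cultures, against 2.02 and 2.31 in the WT cultures, on the log2 scale. The fitted value was 2.11 ± 0.83 without a block (adjusted p = 0.0783, edgeR) and 2.18 ± 0.09 with the replicate block (adjusted p = 4.06e-16). For Col1a1 the ratio was 2.34 and 1.92 in the DKO cultures, against 2.02 and 1.95 in the WT cultures. Its fitted value was 2.07 ± 0.71 without a block (adjusted p = 0.0543, edgeR) and 2.08 ± 0.08 with the replicate block (adjusted p = 2.06e-17). DESeq2 and limma-voom, both without the block, called Acta2 and Col1a1 higher as well. All 4 cultures gave a ratio far above 0 for both genes, and the median SE over members was 0.33 without the block and 0.12 with it. Col1a2 stood at 0.58 ± 0.71 and Col3a1 at 0.38 ± 0.70, with block values of 0.62 ± 0.07 and 0.40 ± 0.07, and Tagln at 1.31 ± 1.0, with a block value of 1.33 ± 0.21.

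Sparc rested on 1 isoform. Isoform Sparc-205, a retained intron of 741 bases, took 69.2% and 65.3% of the Sparc footprints in DKO, against 68.6% and 67.5% in WT, and at most 0.1% of its RNA in any library. With protein-coding isoforms only, the footprints of Sparc relative to RNA were -0.08 on the log2 scale and the call was lost (adjusted p = 0.828, edgeR). Col19a1 turned likewise, to 0.26 (adjusted p = 0.175, edgeR), and 45.3% to 45.7% of its DKO RNA and 49.2% to 50.4% of its WT RNA came from isoforms without a coding sequence. Col27a1, a fibrillar collagen of cartilage, kept its value at -1.55 but not its call (adjusted p = 0.182, edgeR). Twist1 stood at -0.98 ± 0.42 without a block, where it was not called, and at -0.91 ± 0.19 with the replicate block, where it was. Without both libraries of DKO replicate 1 the calls of Sparc and Col9a2 were lost, at 1.37 and -0.79, and without those of DKO replicate 2 the calls of Col9a1 and Col11a1 were lost, at -0.47 and -0.29. Col2a1 lost its call in 5 and Col8a1 in 6 of 12 settings that left out a library or a culture, and Col19a1 and Col27a1 in 0.

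**Figure D5:**
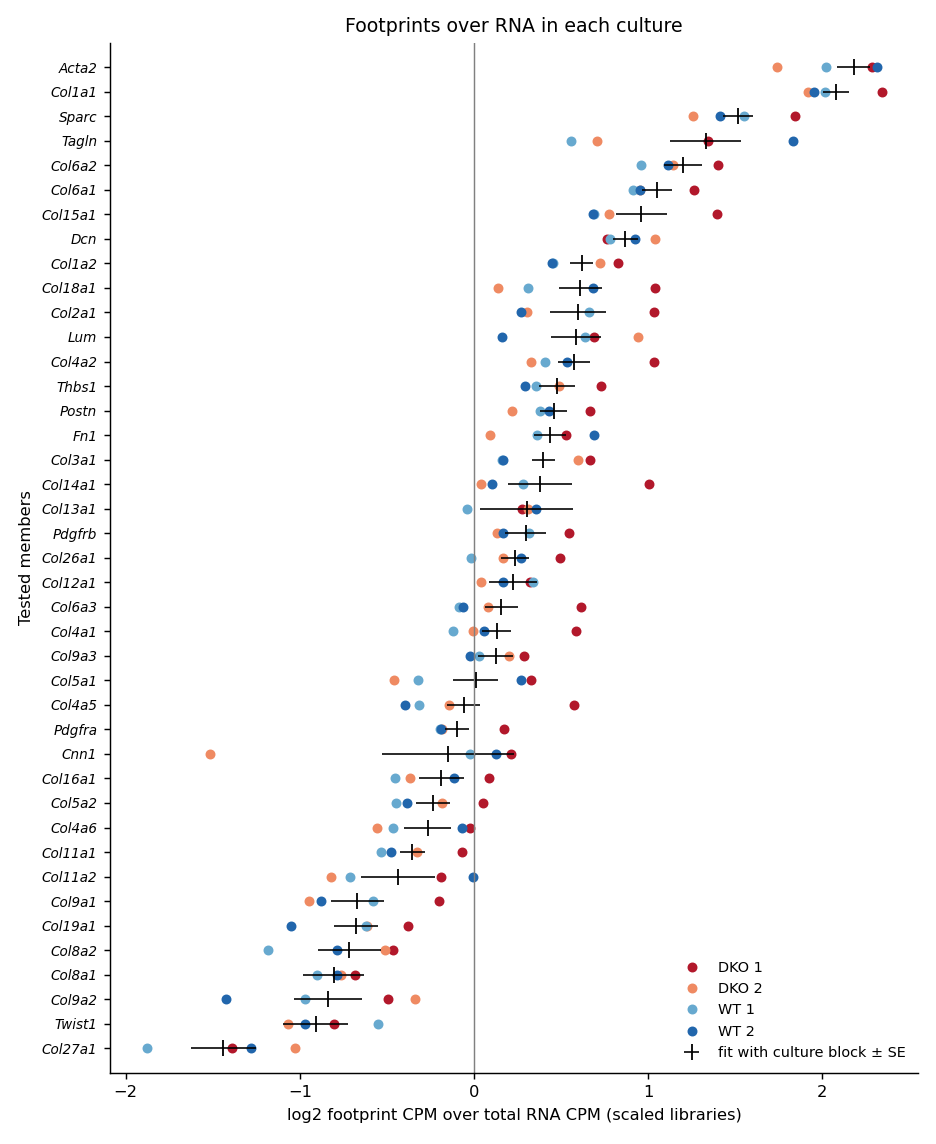
Log2 of footprint CPM over RNA CPM (horizontal) for the 41 tested members in each culture, with the value fitted with the culture block and its SE as black bars. Acta2 and Col1a1 stand at the top with all 4 cultures between 1.74 and 2.34, and Col27a1 stands at the bottom.

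The chains Col1a1 and Col1a2 of type I, and Col6a1 and Col6a2 of type VI, kept similar proportions in every culture. Levels between genes were compared per length, as footprint CPM per kilobase of coding sequence and RNA CPM per kilobase of transcript. For Col1a1 over Col1a2 the ratio of footprint density was 2.16 and 1.78 in DKO, against 2.06 and 1.74 in WT, and the ratio of RNA density was 0.72 and 0.74 in DKO, against 0.66 and 0.59 in WT. The footprint ratio of the type I chains thus stayed between 1.74 and 2.16, whereas Col1a1 footprints themselves spanned 54.14 to 265 CPM. This ratio includes isoforms without a coding sequence, which held 6.6% to 11.2% of the Col1a1 footprints. Col6a1 over Col6a2 had footprint density ratios of 1.56 and 1.73 in DKO, against 1.68 and 1.47 in WT, and RNA ratios of 1.65 and 1.91, against 1.66 and 1.57. Col6a3, the long chain of type VI, followed Col6a1 less closely. Its footprint density was 3.259 and 1.758 CPM per kilobase in DKO, against 2.911 and 4.223 in WT. Isoforms without a coding sequence held 58.1% and 52.6% of the Col6a3 footprints in DKO, against 50.8% and 59.6% in WT. They also held 38.1% to 46.2% of its RNA, so the density of Col6a3 is uncertain. For Col6a1 the density was 9.816 and 3.594 in DKO, against 4.489 and 11.46 in WT. As background, collagen I protein holds more of the Col1a1 chain than of the Col1a2 chain. A link between the protein and these ratios was not tested.

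In footprints, pairs of other types varied more. Col4a1 over Col4a2 had footprint ratios of 1.37 and 1.24 in DKO, against 0.99 and 1.66 in WT, and RNA ratios of 1.78 and 1.49, against 1.36 and 2.19. For Col4a5 over Col4a6, the other head-to-head pair printed above, the footprint ratios were 4.98 and 4.45 in DKO, against 3.88 and 3.52 in WT, and both DKO values were above both WT values. The RNA ratios were 3.34 and 3.37 in DKO, against 3.54 and 4.48 in WT. For Col5a1 over Col5a2 the footprint ratios were 1.04 and 0.81 in DKO, against 0.83 and 1.59 in WT, and the RNA ratios 0.83 and 0.95 in DKO, against 0.74 and 0.98 in WT. For Col9a1 over Col9a3 the footprint ratios were 0.30 and 0.17 in DKO, against 0.25 and 0.24 in WT. The RNA ratios of this pair varied little, at 0.423 and 0.385 in DKO, against 0.389 and 0.441 in WT. With 2 cultures in a group an exact permutation test of such a ratio cannot pass the threshold, and none was run.

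Genes that make, modify and export collagen were divided. Of 24 genes for collagen synthesis and secretion all were tested, 0 were called in either assay, and the median log2 change was -0.04 in footprints and -0.03 in RNA. Sec24d, a coat protein for collagen export, stood at 0.36 ± 0.12 on the log2 scale in footprints, Creb3l1, a transcription factor of collagen secretion, at 0.56 ± 0.21 and Tmem38b, an ion channel of the endoplasmic reticulum, at 0.35 ± 0.14. Tmem38b held 6013 and 5594 CPM in DKO footprints, against 4712 and 4400 CPM in WT footprints, but only 13.25 to 16.07 CPM in RNA of any library. Without Tmem38b the list summed to 1693 and 1592 CPM in DKO footprints, against 1559 and 1702 CPM in WT footprints. Of the 24 genes, 12 were highest in WT replicate 2 in both assays. Serpinh1, a chaperone of collagen, was one, at 74.63 and 62.59 CPM in DKO footprints, against 62.93 and 128.8 CPM in WT footprints, and Plod2, an enzyme that modifies lysines of collagen, another, at 14.99 and 14.48 CPM in DKO, against 16.73 and 30.66 CPM in WT. Sec23a, a coat protein of export vesicles, was lowest there, at 265.2 and 258.8 CPM in DKO footprints, against 241.6 and 218.6 CPM in WT footprints. The list's medians without both libraries of WT replicate 2, over the genes tested in that setting, were 0.10 in footprints and 0.12 in RNA.

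Genes for the maturation and cross-linking of collagen (11 of 15 tested, Fmod under 10 counts) had a median log2 change of -0.31 in footprints and -0.30 in RNA with 0 called. Pcolce, an enhancer of the enzyme that trims procollagen, had 8.327 and 3.074 CPM in DKO footprints, against 5.127 and 19.69 CPM in WT footprints, and Bgn, a proteoglycan, had 2.706 and 1.005 CPM in DKO, against 1.352 and 12.21 CPM in WT. Both followed the order of the type I chains. Bmp1, the trimming enzyme itself, stood at -0.61 ± 0.27 on the log2 scale in footprints. With both libraries of WT replicate 2 left out, the medians were 0.12 in footprints and -0.055 in RNA, and Bmp1 stood at -0.25. Collagen receptors (6 of 10 tested, Gp6 under 10 counts) had medians of -0.14 and -0.24 with 0 called: Itga1, an integrin chain, stood at -1.49 ± 0.67, Itgb1, the common integrin chain, at -0.17 ± 0.11 and Ddr1, a receptor kinase, at -0.24 ± 0.16 in footprints. The receptor medians were -0.11 and -0.11 without WT replicate 2, and Itga1 stood at -0.39.

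Basement membrane partners of type IV collagen, which are laminins, nidogens and proteoglycans, were mostly highest in WT replicate 2. They summed to 358.1 and 332.1 CPM in DKO footprints, against 299.4 and 837.4 CPM in WT footprints, and 10 of 12 tested were highest in WT replicate 2 in both assays. Lamc1, a laminin chain, had 69.11 and 81.03 CPM in DKO footprints, against 64.85 and 197.9 CPM in WT footprints, so that WT replicate 1 was the lowest. Nid2, a nidogen, had 41.01 and 12.89 CPM in DKO footprints, against 24.45 and 76.08 CPM in WT footprints, which is the order of the type I chains, and Nid1 and Lama4 shared that order in footprints. The median log2 change was -0.81 in footprints and -0.70 in RNA with 0 called, and the smallest p-values were those of Lama5 (-0.90 ± 0.43), Lama3 (0.75 ± 0.46) and Agrn (-0.14 ± 0.11). Leaving out WT replicate 2 gave medians of 0.09 and 0.09, and Lama5 stood at -0.33.

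Lists of matrix breakdown, the TGF-beta pathway and targets of serum response factor had no called member in either assay. Matrix breakdown genes (10 of 12 tested, Mmp13 under 10 counts) had medians of -0.18 and -0.22, with Timp4, Mmp15 and Timp3 at -0.26 ± 0.10, -0.17 ± 0.12 and -0.20 ± 0.16 in footprints. The TGF-beta list (15 of 20 tested) had medians of -0.09 and -0.14, with the signal carriers Smad3 and Smad7 at -0.36 ± 0.16 and -0.46 ± 0.22 and the matrix protein Ccn1 at -0.71 ± 0.38. The list of serum response factor and actin genes (9 of 12 tested), which holds relatives of Acta2 and Tagln, had medians of -0.20 and -0.28, with Flna, Myl9 and Cald1 at -0.64 ± 0.36, -0.84 ± 0.59 and -0.48 ± 0.41. Leaving out WT replicate 2 gave medians of -0.02 and 0.12 for matrix breakdown, 0.10 and 0.18 for the TGF-beta list and 0.09 and 0.03 for the actin list, with Flna at -0.10, Myl9 at 0.28 and Cald1 at 0.02.

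In the marker lists 0 genes were called. Median log2 changes in footprints and RNA were -0.36 and -0.34 for other fibroblast markers, -0.11 and -0.38 for mural, -0.38 and -0.30 for endothelial, and -1.31 and -0.92 for meningeal markers. They were 0.33 and 0.01 for chondrocyte and bone markers, -0.09 and -0.23 for oligodendrocyte precursor, 0.07 and 0.01 for neuron, -0.25 and -0.25 for progenitor, and -0.15 and -0.32 for astrocyte markers, and no pluripotent marker was tested. The smallest p-values in footprints were those of Fbln1 (-0.36 ± 0.26), Pdpn (-0.70 ± 0.52) and Vim (-0.38 ± 0.30) of the fibroblast list, Notch3 (-0.20 ± 0.14) of the mural list and Crabp2 (-1.49 ± 0.75) and Slc6a13 (-2.17 ± 1.28) of the meningeal list. Without both libraries of WT replicate 2 the medians were 0.11 and 0.09 for other fibroblast, 0.15 and 0.19 for mural, 0.25 and 0.24 for endothelial and -0.12 and 0.74 for meningeal markers, and again 0 genes were called. They were 0.46 and 0.08 for chondrocyte and bone, -0.10 and -0.21 for oligodendrocyte precursor, -0.06 and -0.01 for neuron, -0.04 and -0.07 for progenitor and 0.01 and -0.03 for astrocyte markers. In the same setting Crabp2 stood at -0.21 and Slc6a13 at -0.49 in footprints. Fbln1 stood at -0.06, Pdpn at -0.09, Vim at 0.04 and Notch3 at -0.06. Flt1, an endothelial receptor, had 0.6245 and 0.8866 CPM in DKO footprints, against 0.6197 and 8.792 CPM in WT footprints. Matn1 and Acan, cartilage matrix genes, stood at 1.21 ± 0.50 and 0.62 ± 0.34, Olig2, a factor of oligodendrocyte precursors, at -0.21 ± 0.10, Fabp7, a marker of radial glia, at -0.29 ± 0.12, and Slc1a3, a glutamate transporter of astrocytes, at -0.35 ± 0.17.

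The 12 members not tested were Col4a3, Col4a4, Col5a3, Col25a1, Col22a1, Col17a1, Col28a1, Col24a1, Col7a1, Col10a1, Col6a6 and Col6a4. All but Col4a3 were low in both assays, at no more than 1.112 CPM in any library. Col4a3, a type IV chain of the kidney filter and other special basement membranes, had 0.6245 and 0.4728 CPM in DKO footprints, against 0.6197 and 0.7993 CPM in WT footprints, yet 26.73 and 29.51 CPM in DKO RNA, against 31.19 and 43.61 CPM in WT RNA. Its footprints were thus near the lower limit in all 4 cultures, while its RNA was not. An antisense gene, C430014B12Rik, overlaps exons of Col4a3 by up to 289 bases and is not in the table, and the sources used here do not say whether counting used strand, so reads of the antisense gene cannot be told apart from those of Col4a3.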

How the data were processed

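Ribosome footprints and total RNA of DKO and WT neurons (2 libraries a group) were analysed from the table the authors deposited, which holds whole-number estimated counts per transcript. FastQC, Trimmomatic, Bowtie and kallisto are named without versions or order, per the submitters' processing notes; build, transcript set and strand setting were not stated in the material at hand. Transcripts were matched to GENCODE M21 (GRCm38): 60444 of 60528 (99.86%) matched, and the 84 unmatched ones held 0.076% to 0.151% of the counts. Counts were summed to 18301 genes.

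All 8 libraries entered 1 edgeR quasi-likelihood fit (robust, edgeR 4.0.16, limma 3.58.1, R 4.3.3) with TMM scaling over genes passing filterByExpr (minimum count 10) in both assays. This left 12898 genes and 4 residual degrees of freedom. The fit contrasted DKO with WT in footprints, in RNA and in footprints over RNA (translational efficiency), and footprints with RNA over all cultures. P-values were adjusted by the Benjamini-Hochberg method over all genes, with calls under 0.05, and SE is the log2 change over the root of F. The scripts were tested on simulated data. CPM used TMM factors.

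The culture codes in the labels pair the footprint and RNA libraries of a genotype and number, but for DKO replicate 2 the match is uncertain. With this pairing, culture was a block in an alternative fit with 2 residual degrees of freedom. Values of that fit are printed for the members whose call it changed. Between genotypes a replicate number marks nothing further. Also tried were RLE scaling, TMM by assay, other filters, DESeq2 1.42.0, limma-voom, coding isoforms, each assay alone, and leaving out each library or culture.

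Members and gene lists were chosen with earlier results of these data known. Named were the listed genes, the 14 most abundant collagens, every called member, the 3 smallest p-values of each genotype contrast, the 4 highest and 4 lowest footprints over RNA, and up to 3 genes a list. Other genes named were chosen after their values were seen. Depths are given in the report, and low counts limit precision for members under about 1 CPM.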

Additional observations from a re-analysis of the deposited data

How the results depend on the processing

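The alternatives gave 1125 values of 55 results, and 1010 of them kept the direction and call, or stayed close for counts and medians. Genes called in footprints numbered 1, and 3 with no filter on low counts, 2 with a mean count of at least 50, 5 with DESeq2 and 0 to 520 when a library or culture was left out, while members called were 0 to 6. Genes called in RNA numbered 2, and 6 with no filter, 13 with DESeq2, 0 with limma-voom, 1 with the assay alone and 0 to 473 in the leave-outs, while members called were 0 to 10. With the number as a replicate block, 40 genes and 1 member (Col4a2, -0.53 ± 0.10, adjusted p = 0.0393 in edgeR) were called in RNA, and 1 gene and 0 members in footprints. Same-numbered DKO and WT libraries deviated weakly in opposite ways, and a block of crossed numbers, chosen after seeing the data, called 13 genes in footprints and 4 in RNA. For translational efficiency DESeq2 called 1 gene, protein-coding isoforms alone gave 2 and the leave-outs 0 to 1, and the culture as replicate block called 0. Members called in footprints over RNA numbered 8, and 15 with no filter, 5 with a mean count of at least 50, 28 with the culture as replicate block and 5 to 14 in the leave-outs. With protein-coding isoforms only, Col19a1 turned to 0.260 and Sparc to -0.078, which removes isoforms by construction. TMM within each assay moved the median of all genes in footprints over RNA to -0.244, and no filter moved it to -0.124.

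Over the settings that left out a library or culture, log2 changes in footprints ran from -2.239 to 0.160 for Acta2, -1.787 to 0.140 for Col1a1, -1.749 to 0.121 for Col1a2, -1.651 to 0.197 for Col3a1, -1.239 to 0.652 for Col4a1, -2.206 to 0.283 for Col8a2, -0.788 to 0.032 for Sparc and -3.055 to 0.203 for Tagln. In RNA they ran from -1.797 to 0.199 for Acta2, -1.756 to 0.001 for Col1a1, -1.459 to 0.266 for Col4a1 and -0.941 to 0.028 for Sparc, and footprints over RNA of Col3a1 from -0.102 to 0.898. The highest of these values came without WT replicate 2, except in footprints over RNA. Medians over the tested members ran from -0.911 to 0.108 in footprints, -0.922 to -0.131 in RNA and -0.453 to 0.656 in translational efficiency. With 2 cultures a group and a median SE of 0.48 in footprints, genotype differences below the spread of the cultures were not detectable.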
